A study of Rattus norvegicus with 14 samples.

Results

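The genes described here are the simple epithelial keratins Krt7, Krt8, Krt18 and Krt19 and the vimentin gene Vim. Every non-control probe whose gene name in the array files is one of these symbols was taken, and each probe was read across 7 rat cell lines. This gave 4 genes, of 15919 with a current symbol on the array, with 5 of its 41012 distinct probes: 1 for Krt8, 2 for Krt18, 1 for Krt19 and 1 for Vim. Krt7 had 0 probes by this rule. Each of the 5 probes had 1 spot on the array, and none of these spots was saturated or marked as an outlier.

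RNA was measured on 14 one-colour arrays, with 2 arrays, A and B, for each of the 7 lines. Fi1 (Fischer, male), Fi2 (Fischer, female) and Wk8 (Wistar-Kyoto, female) are hypoblast stem cell lines that came from blastocysts. CL19 (Fischer, female), 3C3 (Fischer, male) and RMAPC-1 (Fischer, male) are lines of the same kind that came from bone marrow, and RClone-2 (Fischer, male) is the mesenchymal control. The labels give no treatment, passage or age, and do not say whether arrays A and B came from separate cultures, so p-values over arrays measure a spread that may be technical. RClone-2 is a single line, and comparisons with it are comparisons with that line. Levels below are log2 processed signals minus the 75th percentile of the same array. A level of one probe is not set against that of another, since probes differ in brightness.

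Keratins form intermediate filaments as pairs, each made of a type II partner (Krt7, Krt8) and a type I partner (Krt18, Krt19). Krt8 and Krt18 are the first keratins of the embryo and are found in its extraembryonic epithelia and in simple epithelia of the adult. Vimentin, a type III protein that assembles without a partner, is the usual filament of mesenchymal cells, and keratin and vimentin are widely used to mark epithelial and mesenchymal states.

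The 5 probes are shown because their position decides which transcripts each one can read. They are given 5′ to 3′ in lower case, with no base marked.

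Krt8: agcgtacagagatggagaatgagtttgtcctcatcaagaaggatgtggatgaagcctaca

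Krt18 (A_44_P400494): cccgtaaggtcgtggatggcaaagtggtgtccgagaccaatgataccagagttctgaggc

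Krt18 (A_44_P1025476): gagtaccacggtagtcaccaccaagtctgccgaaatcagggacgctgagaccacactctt

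Krt19: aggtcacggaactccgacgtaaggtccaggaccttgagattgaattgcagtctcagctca

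Vim: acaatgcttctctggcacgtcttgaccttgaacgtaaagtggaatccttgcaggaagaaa

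The array files place the Krt8 probe on the minus strand at chr7:140716967-140717949 of build rn4. Its 60 bases span 983 bases of the genome there, so the probe crosses at least 1 intron. The Krt19 probe lies on the minus strand at chr10:89081437-89081496 and the Vim probe on the plus strand at chr17:87851390-87851449. Both Krt18 probes list the same Krt18 transcript, but the files place A_44_P400494 at chr2:80044443-80044502 (plus strand) and A_44_P1025476 at chr10:66107092-66107151 (minus strand). In the RefSeq table of the newer assembly GRCr8, used for names and neighbours only, Krt18 lies on chromosome 7 next to Krt8 with 1 annotated gene between them. That table lists 7 further Krt18 copies on 7 chromosomes. They include the protein-coding Krt18l1 on chromosome 2 and the pseudogene Krt18-ps1 on chromosome 10, the chromosomes on which the files place the 2 Krt18 probes. Whether the probes also read these copies was not tested, so the Krt18 values are uncertain in that respect.

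The promoter stretches of the members in the RefSeq GRCr8 table are shown because Krt8 and Krt18 are neighbours whose transcripts were high together, with Vim for contrast. Each is the strand of the gene from 250 to 71 bases before the annotated start, 180 bases in all, and capitals mark matches to the motifs searched. Krt8 is the minus strand of chr7:135010410-135010589, Krt18 the plus strand of chr7:135035918-135036097, and Vim the plus strand of chr17:81577011-81577190.

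Krt8: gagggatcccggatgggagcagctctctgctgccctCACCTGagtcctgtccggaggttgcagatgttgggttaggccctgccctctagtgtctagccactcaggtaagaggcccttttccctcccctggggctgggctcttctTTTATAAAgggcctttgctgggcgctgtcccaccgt

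Krt18: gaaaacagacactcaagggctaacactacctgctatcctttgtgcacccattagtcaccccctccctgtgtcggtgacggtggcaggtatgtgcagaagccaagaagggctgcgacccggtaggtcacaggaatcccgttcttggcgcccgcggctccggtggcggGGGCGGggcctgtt

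Vim: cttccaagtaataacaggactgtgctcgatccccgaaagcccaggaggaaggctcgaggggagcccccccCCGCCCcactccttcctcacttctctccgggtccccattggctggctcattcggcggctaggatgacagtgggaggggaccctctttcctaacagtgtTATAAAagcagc

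The motifs were searched on both strands. The TATA box was read as TATAAA, a sequence near the start of many tissue-specific genes. The GC box, which Sp1 and related factors bind, was read as GGGCGG. The AP-1 motif, bound by Fos and Jun proteins, was read as TGANTCA, with any base in the middle. The GATA motif had 2 spellings, of which the first was AGATAA. The other spelling, which differs in its first base, was TGATAA. For the E-box that Snai and Zeb factors bind, the letters searched were CACCTG. Of 33469 promoters of the table cut to the same 180 bases, 9.01% held the TATA box, 21% the GC box, 4.68% the AP-1 motif, 13.1% a GATA motif and 12% the E-box. Krt8 held 2 TATA matches on opposite strands that overlap, 106 and 104 bases before the start, and 1 E-box 214 bases before it. Krt18 held 1 GC box, 84 bases before the start, and no TATA match in this window. The window ends 71 bases before the start, so a TATA box nearer the start could not be found in any of the genes. Vim held a TATA match 82 bases before the start and a GC box 180 bases before it. None of the 3 held an AP-1 or GATA match in this window.

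On the 14 arrays, 61.7% to 68.0% of the spots were well above background, and the 75th percentile of the signal was 745.7 to 891.5 on blastocyst arrays and 558.9 to 660.1 on bone marrow arrays. The blastocyst lines and CL19 were hybridised on 2 of the 4 slides, and 3C3, RMAPC-1 and RClone-2 on the other 2. RMAPC-1 stood apart in its arrays: 16.6% of 29309 probes differed more than 2-fold between its A and B arrays, against 3.06% to 6.33% in the other lines. As a check of the labels, all 6 hypoblast markers and all 6 epithelial markers listed were above background on every stem cell array, and so were 2 of 7 stromal markers in each origin. In RClone-2, 6 of the 7 stromal markers were above background on both arrays, as were 5 of the 6 hypoblast and 2 of the 6 epithelial markers. Of 4 blood markers 1 was above background on every array of each group, and of 6 trophoblast markers 4 were in blastocyst lines, 3 in bone marrow lines and 3 in RClone-2. Of 4 endothelial markers, 4 were on all stem cell arrays and 2 on both RClone-2 arrays.

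The first comparison asked how the keratins and vimentin of the stem cell lines stand against the mesenchymal control. Krt8, Krt18 and Krt19 were high in the 6 stem cell lines and low or not above background in RClone-2, and Vim was high in all 7 lines and highest in RClone-2. The difference was 376-fold for Krt8, 1619-fold and 1632-fold for the probes of Krt18, at least 466-fold for Krt19 and 17.3-fold in the opposite direction for Vim. All 5 member probes passed the test, where 47.7% of all 29309 probes tested did (25.3% with a higher and 22.5% with a lower level in these lines). The size of the keratin differences depends on the background correction: with normexp, which adds an offset of 50 to each signal, the log2 difference was 6.65 for Krt8, 9.90 and 8.95 for Krt18, 5.76 for Krt19 and -4.12 for Vim. The bound for Krt19 therefore holds for the processed signals only.

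Krt8, the type II partner of Krt18, had levels of 4.53 and 4.15 on arrays A and B of Fi1, 3.93 and 3.68 in Fi2, and 4.57 and 4.51 in Wk8. They were 4.08 and 3.90 in CL19, 3.71 and 4.10 in 3C3, 2.75 and 2.83 in RMAPC-1, and -4.47 and -4.85 in RClone-2. The stem cell lines lay far above RClone-2 with no overlap, and RMAPC-1 was the lowest of the 6. RClone-2 was still well above background, with processed signals of 27.1 and 21.8. The stem cell lines exceeded RClone-2 by 8.56 ± 0.50 (SE) on the log2 scale, with a limma adjusted p of 5.64e-05 over 7 line means.

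The Krt18 probe A_44_P400494, the brighter of the 2, gave 7.91 and 7.44 in Fi1, 7.41 and 6.81 in Fi2, and 7.62 and 7.64 in Wk8. It gave 8.25 and 8.26 in CL19, 8.83 and 8.20 in 3C3, 7.69 and 8.06 in RMAPC-1, and -3.09 and -2.55 in RClone-2. By line mean the bone marrow lines were at the top, and RClone-2 was alone at the bottom. The stem cell lines were higher by 10.66 ± 0.31 (SE; limma adjusted p = 3.75e-06), a fold of 1619.

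The other Krt18 probe, A_44_P1025476, gave 6.36 and 5.88 in Fi1, 5.78 and 5.06 in Fi2, 5.90 and 6.04 in Wk8, 6.61 and 6.65 in CL19, and 7.04 and 6.64 in 3C3. In RMAPC-1 it gave 5.75 and 6.32, and in RClone-2 -4.54 and -4.47. Both probes ordered the lines nearly alike, with r = 0.98 over the 6 stem cell lines, which share arrays and scaling. The difference from RClone-2 was 10.67 ± 0.37 (SE; limma adjusted p = 7.02e-06).

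Krt19, a type I keratin without the usual tail domain, gave 1.95 and 2.26 in Fi1, 2.32 and 2.91 in Fi2, and 3.50 and 3.22 in Wk8. It gave 2.06 and 2.25 in CL19, 2.23 and 2.88 in 3C3, and 1.26 and 3.60 in RMAPC-1, whose arrays spanned the range of all stem cell arrays. In RClone-2 the probe was not well above background on either array, with measured levels of -8.16 and -8.58. Against the lowest signal called above background there, the stem cell lines were at least 466-fold higher, from a mean of 2.54 against a measured mean of -8.37 (limma adjusted p = 1.2e-05).

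Vim gave 4.94 and 4.74 in Fi1, 5.35 and 5.11 in Fi2, and 3.90 and 4.20 in Wk8. It gave 5.52 and 5.32 in CL19, 3.34 and 4.26 in 3C3, 5.65 and 3.07 in RMAPC-1, and 8.86 and 8.59 in RClone-2. RClone-2 was above every stem cell array, and the arrays of the 2 origins overlapped, from 3.90 to 5.35 in blastocyst lines and from 3.07 to 5.65 in bone marrow lines. The stem cell lines were lower by 17.3-fold, a log2 difference of -4.11 ± 0.65 (SE; limma adjusted p = 0.00342). Vim was well above background on all 14 arrays, so keratin and vimentin transcripts were measured together in each of the 6 stem cell lines; whether single cells hold both was not measured. In these bulk samples, fewer cells of a type and less RNA per cell cannot be told apart.

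**Figure D1:**
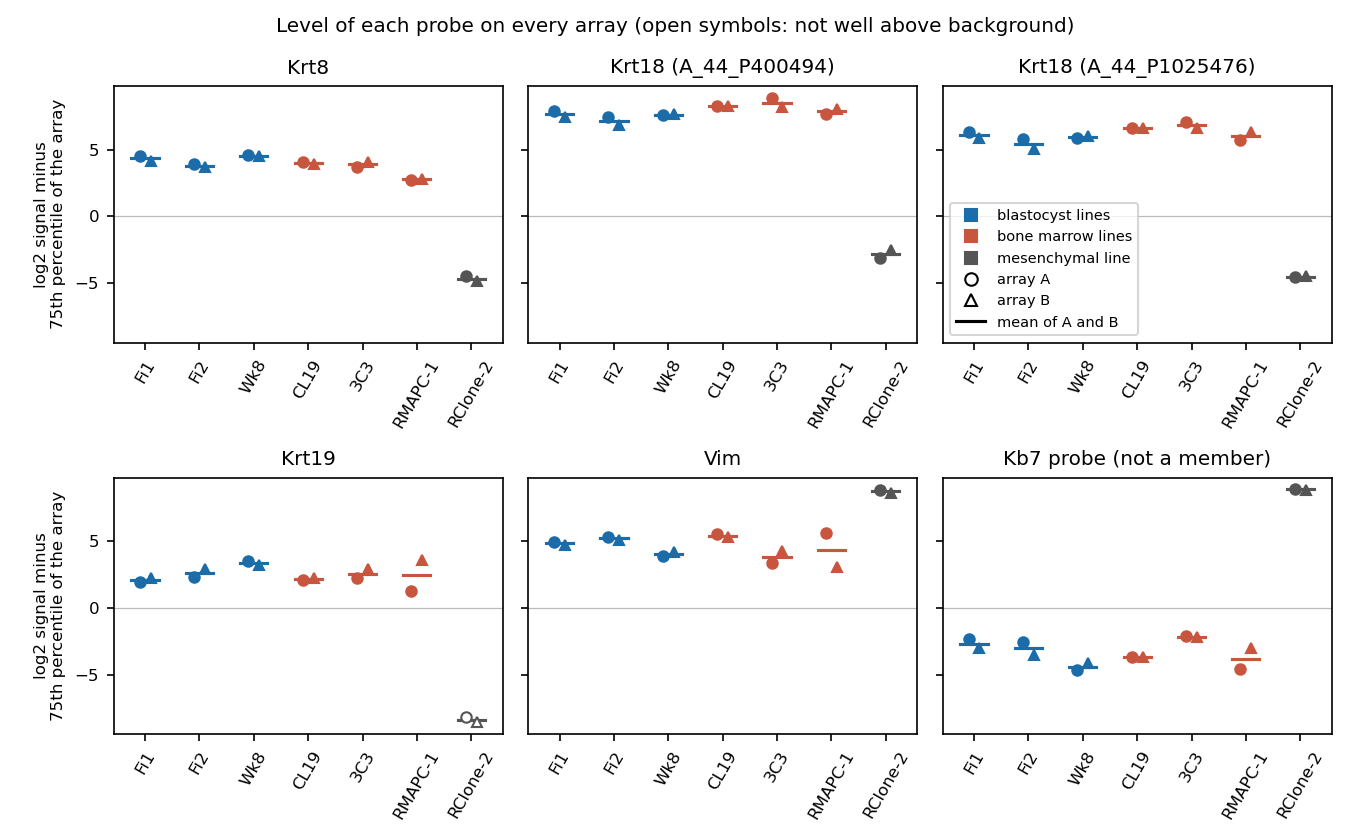
Level of each member probe, and of the probe annotated Kb7, on every array of the 7 lines (y axis: log2 processed signal minus the 75th percentile of the array). The Krt8, Krt18 and Krt19 panels show RClone-2 far below the other lines, and the Vim and Kb7 panels show it above them; open symbols mark Krt19 in RClone-2, not well above background.

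Keratin 7, the type II keratin of many ductal and glandular epithelia, had no probe under its symbol. One probe, A_44_P1029805, is described in the files as type II keratin Kb7, a name used for keratin 7 in the older rat nomenclature, and lies at chr7:140175626-140175685 (rn4, plus strand). It is not a member by the rule and stands here for context. It read 8.89 and 8.84 in RClone-2. On the 12 stem cell arrays it lay between -4.63 (array A of Wk8) and -2.11 (array A of 3C3). The probe was thus 4575-fold lower in the stem cell lines, a log2 difference of -12.16 ± 0.82 (SE), with a limma adjusted p of 0.000106, a direction opposite to that of Krt8, Krt18 and Krt19. Whether it reads Krt7 was not tested.

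Each origin was also set against RClone-2, the control that both share. For Krt8 the difference was 8.89 ± 0.53 (SE) in blastocyst lines and 8.22 ± 0.53 in bone marrow lines. For Krt18 (A_44_P400494) it was 10.29 ± 0.33 and 11.03 ± 0.33, and Krt19 was at least 519-fold and at least 418-fold higher. Vim differed by -4.02 ± 0.69 and -4.20 ± 0.69. All 5 member probes passed in both comparisons, where 48.7% of all probes did for the blastocyst lines (22.9% higher, 25.8% lower) and 46.8% for the bone marrow lines (27% higher, 19.8% lower).

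The second comparison asked whether the blastocyst and bone marrow lines differ. None of the 5 member probes passed, while 32.4% of all probes did (9.13% higher and 23.3% lower in blastocyst lines). At an unadjusted p under 0.05, 1 of the 5 was below the threshold, the Krt18 probe A_44_P400494. At least 32.4% of all probes were below it too, since adjustment never lowers a p-value. The Krt8 value was higher in the blastocyst lines and those of both Krt18 probes in the bone marrow lines. The median difference of all probes was -0.20.

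Krt8 was 4.23 ± 0.38 (SD, n = 3 lines) in blastocyst lines and 3.56 ± 0.67 in bone marrow lines. The difference was 0.66 with a 95% interval of -0.25 to 1.58 (limma adjusted p = 0.218), and the line means overlapped, CL19 and 3C3 lying above Fi2. Without RMAPC-1 the Krt8 difference was 0.28, and a probe annotated as keratin 8-like (A_44_P138355) differed by 0.12. A dim probe annotated as EndoA-like (A_44_P197018) differed by 0.60 (limma adjusted p = 0.135). It was not above background on any array of 3C3 or RMAPC-1. Krt18 (A_44_P400494) was 7.47 ± 0.31 (SD, n = 3 lines) and 8.22 ± 0.32. Here each bone marrow line mean was above each blastocyst line mean, and the share of all probes that separate in this way was not computed. The difference was -0.74, with an interval of -1.31 to -0.17 and a limma adjusted p of 0.0548. For the other Krt18 probe the difference was -0.67, the interval -1.35 to 0.01 and the limma adjusted p 0.115, and Fi1 overlapped RMAPC-1.

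Krt19 was 2.69 ± 0.63 (SD, n = 3 lines) in blastocyst lines and 2.38 ± 0.21 in bone marrow lines, a difference of 0.31 with an interval of -0.49 to 1.11. Vim was 4.71 ± 0.60 and 4.53 ± 0.82, a difference of 0.18 with an interval of -1.02 to 1.38. Their limma adjusted p-values were 0.492 and 0.798. The Vim interval holds differences of 2-fold in either direction, so equal levels were not shown.

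**Figure D2:**
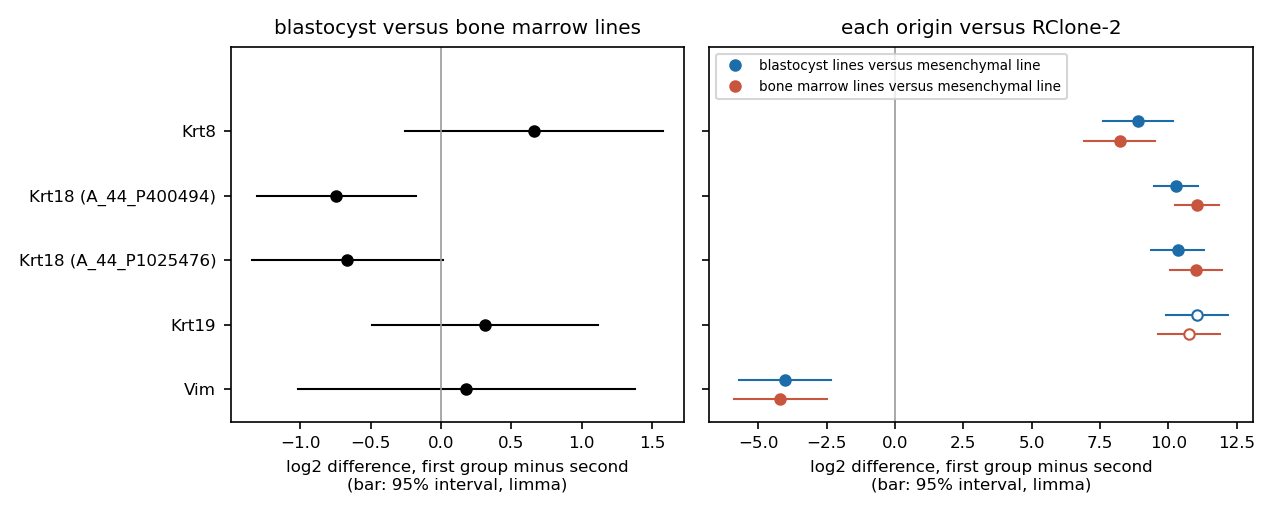
Log2 difference of each member probe with its 95% interval (x axis: first group minus second), for blastocyst against bone marrow lines (left) and for each origin against RClone-2 (right). The left panel has 1 interval that excludes 0, that of Krt18 (A_44_P400494), and no probe passed after adjustment; open points on the right are Krt19, a fitted value against a line not above background.

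Scaling and slides bear on these small differences. Without scaling between arrays every difference moved up by 0.48, so that Krt8 was 1.14 and Krt18 (A_44_P400494) -0.26 against a median of 0.28 over all probes. With scaling to the spiked-in transcripts every difference moved down by 0.26, Krt18 (A_44_P400494) was -1.004 and both Krt18 probes passed, with limma adjusted p-values of 0.0257 and 0.0486. The median over all probes was then -0.46, and 10863 of all probes passed. CL19 is the bone marrow line that shares slides with blastocyst lines, and within those slides the blastocyst lines differed from it by 0.23 in Krt8, -0.78 in Krt18 (A_44_P400494), 0.54 in Krt19 and -0.71 in Vim. This sets 3 lines against 1, and 0 of all probes passed in it or in the line fit with a term for the slide pair, so these fits say nothing on whether a member differs. A fit over arrays with the slide as a term gave the same differences and 3597 calls, with 0 among the members.

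The difference between Krt8 and Krt18 on one array does not depend on the scaling, and its variation between lines was compared because the proteins pair. Krt8 minus Krt18 was -3.34 in Fi1, -3.31 in Fi2 and -3.09 in Wk8, and -4.26 in CL19, -4.61 in 3C3 and -5.08 in RMAPC-1. The 3 blastocyst lines were above the 3 bone marrow lines with no overlap. The share of other probe pairs that separate in this way was not computed. The means were -3.25 ± 0.13 (SD, n = 3 lines) and -4.65 ± 0.41, 1.41 apart. The exact two-sided permutation p was 0.1, the smallest that 3 lines against 3 allow, and 0.2 after Benjamini-Hochberg adjustment over the 2 ratios compared. With a probe annotated as keratin 8-like (A_44_P138355, chr11:64864619-64864678 in rn4, plus strand) in place of Krt8, an alternative chosen after the data were seen, the gap was 0.87. In the slides that CL19 shares with the blastocyst lines, it was the lowest of the 4 lines.

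The mean of Krt8 and Krt18 minus Vim, a measure of keratin against vimentin, was 1.17 in Fi1, 0.23 in Fi2 and 2.03 in Wk8, and 0.71 in CL19, 2.41 in 3C3 and 0.97 in RMAPC-1. Lines of both origins were interleaved. The means were 1.15 ± 0.90 (SD, n = 3 lines) and 1.36 ± 0.92, with an exact two-sided permutation p of 0.8 (0.8 after adjustment over the 2 ratios). RClone-2 was at -12.46, far below the 6 stem cell lines.

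**Figure D3:**
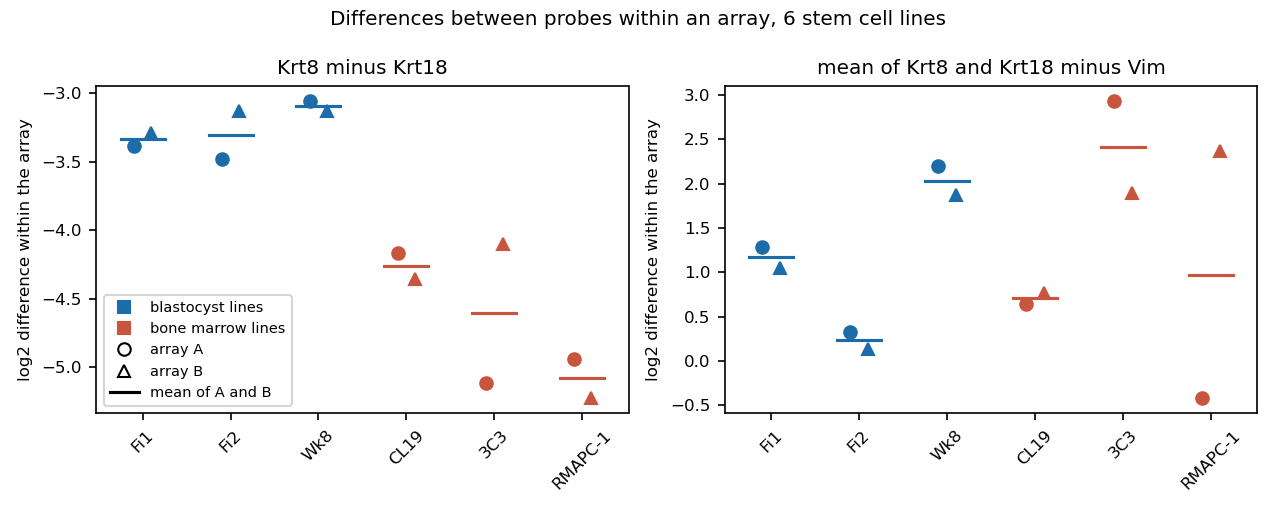
Difference between probes within each array for the 6 stem cell lines (y axis: log2 difference; points are arrays, bars line means). In the left panel, Krt8 minus Krt18, the blastocyst lines lie from -3.34 to -3.09 and the bone marrow lines from -5.08 to -4.26; in the right panel, keratin minus Vim, the origins overlap and the RMAPC-1 arrays are far apart.

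Within an origin, lines were compared against the spread of arrays A and B. Among the bone marrow lines, 1 of the 5 member probes passed a limma F-test, where 0.696% of all probes did: Krt8 ranged over 1.2005 on the log2 scale, from CL19 at 3.99 and 3C3 at 3.91 down to RMAPC-1 at 2.79 (limma adjusted p = 0.0475). This call was lost with normexp background correction, without scaling, with spike-in scaling and without the filter on dim probes. The keratin 8-like probe ranged over 1.10 among the same lines with RMAPC-1 again lowest (limma adjusted p = 0.0235). Among the blastocyst lines 0 of 5 passed, where 8.47% of all probes did. The lowest limma adjusted p was 0.0963, for Krt8, from 4.54 in Wk8 to 3.81 in Fi2.

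Wk8, the Wistar-Kyoto line, had the highest Krt19 of the 7 lines and the lowest Vim of the blastocyst lines. Its Krt19 was 1.00 above the mean of Fi1 and Fi2 and its Vim 0.98 below it. Its Krt8 was 0.47 higher and the Kb7 probe 1.53 lower. With 1 line of this strain, strain and line cannot be told apart.

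The arrays A and B of RMAPC-1 differed in Krt19 and Vim far more than those of other lines did. From A to B, Krt19 was higher by 2.34 and Vim lower by 2.57, while Krt8 differed by 0.07 and Krt18 by 0.36 and 0.57. The Kb7 probe differed by 1.58. In the other 6 lines the 5 member probes differed by less than 1 between arrays, the farthest being Vim in 3C3 at 0.92. Over all probes, 4.54% differed more than 4-fold between the RMAPC-1 arrays, against 0.413% to 0.842% in the other lines. Krt19 and Vim had r = -0.69 over the 12 stem cell arrays and -0.45 over the 10 arrays without RMAPC-1, as a description only.

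**Figure D4:**
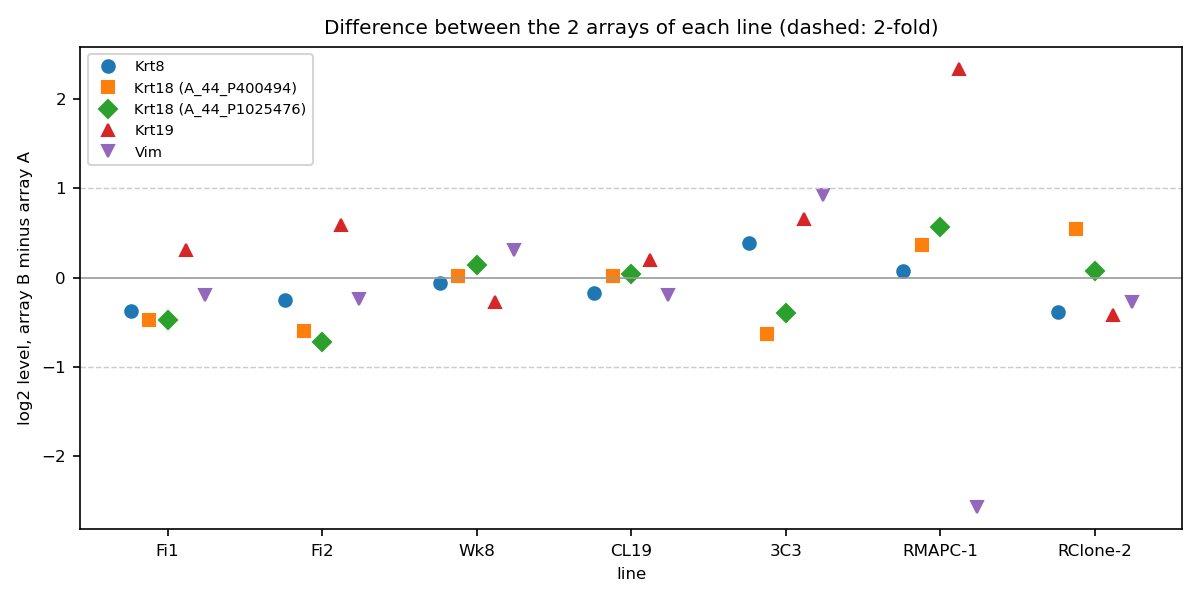
Difference between arrays B and A of each line (y axis: log2 level, B minus A) for the 5 member probes. Krt19 at 2.34 and Vim at -2.57 in RMAPC-1 are the points outside the dashed 2-fold lines.

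Over the 6 stem cell line means, Krt8 and Krt18 (A_44_P400494) had r = -0.09, Krt8 and Vim 0.02, and Krt19 and Vim -0.55. These are descriptions over 6 lines whose probes share arrays. Among 2611 probes that varied as much (SD of at least 0.5) and were above background on all 12 arrays, the named genes closest to Krt8 were Nnat (r = 0.98), Shisa8 (0.97) and Myh3 (0.97). Those closest to Vim were Sox4 (0.95), Itgb7 (0.94) and Lmo2 (0.94). The search took the brightest probe of a gene, and those of Krt18 and Krt19, with SDs of 0.4955 and 0.4536, fell under the limit; the other Krt18 probe, at 0.5054, was not searched.

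Among the other keratins, 20 of 35 listed genes had a probe and 9 were tested. Against RClone-2, 1 was higher in the stem cell lines, 3 were lower and 5 did not pass, with a median of 0.33 beside 0.04 for all probes. Of all probes, 47.7% passed in this comparison (25.3% higher, 22.5% lower). Krt4, a keratin of stratified mucosa, was at least 5.74-fold higher (limma adjusted p = 0.0248), and was above background on 11 of 12 stem cell arrays and on none of RClone-2. Krt76 was at least 4.37-fold lower, with no stem cell array above background (limma adjusted p = 0.00165). Krt4 entered the test through the stem cell lines and Krt76 through RClone-2, so the filter largely set these directions. Krt12, the corneal keratin, was above background on 4 of 12 stem cell arrays and lower, with a measured difference of -1.24 ± 0.28 (SE), and Krt14, of basal epidermis, was lower at -0.92 ± 0.17 (limma adjusted p = 0.0128 and 0.00557). None of the tested keratins in this list had a difference as large as that of Krt8, Krt18 or Krt19.

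Between blastocyst and bone marrow lines 1 of the 9 other keratins was higher, 2 were lower and 6 did not pass. Of all probes, 32.4% passed in this comparison (9.13% higher, 23.3% lower). Krt20, another keratin of simple epithelia, was at least 2.65-fold higher in blastocyst lines (limma adjusted p = 0.0358), with line means of -3.61 in Fi1, -4.35 in Fi2 and -5.86 in Wk8. It was above background on 5 blastocyst arrays and on no other array. Krt20 thus entered the test through the blastocyst lines, so the filter largely set this direction and the p-value is no separate support. Krt14 and its partner Krt5 were dim in every line and lower in blastocyst lines, at -0.73 ± 0.12 (SE) and -0.53 ± 0.13 (limma adjusted p = 0.0124 and 0.0311).

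Of 15 other intermediate filament genes, 11 were tested. Against RClone-2, 4 were higher, 4 lower and 3 did not pass (median -0.28), where 47.7% of all probes passed. Nestin (Nes), a filament protein of many progenitor cells, was 32.0-fold higher in the stem cell lines, a log2 difference of 4.999 ± 0.47 (SE; limma adjusted p = 0.00041). The neurofilament gene Nefh was at least 63.6-fold higher (limma adjusted p = 0.0117). Synemin (Synm), which copolymerises with vimentin and desmin, was above background on 3 of 12 stem cell arrays and lower there. Its measured log2 difference was -6.28 ± 0.47 (limma adjusted p = 0.000163). Syncoilin (Sync), above background on all 12 stem cell arrays, was also lower, at -4.30 ± 0.26 (limma adjusted p = 6.74e-05). Between the origins 2 were higher in blastocyst lines, Bfsp1 by 1.36 ± 0.33 and Sync by 1.202 ± 0.20 (SE; limma adjusted p = 0.028 and 0.0114). Prph was lower (-0.57 ± 0.13; limma adjusted p = 0.0249), and 8 did not pass, where 32.4% of all probes passed.

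Keratin filaments are anchored at desmosomes, and 17 of the 22 listed linker and desmosome genes were tested. Against RClone-2, 6 were higher, 7 lower and 4 did not pass (median -0.25), where 47.7% of all probes passed. The 6 that were higher were Dsg2, Dsc2, Jup, Pkp3, Dsp and Perp. The 7 that were lower were Ppl, Evpl, Plec, the plakophilins Pkp1 (-1.44) and Pkp2 (-2.16), Itga6 (-0.94) and Itgb4 (-2.18). The desmosomal cadherin Dsg2 was higher by 10.00 ± 0.17 (SE; limma adjusted p = 1.05e-06), with 1 of the 2 RClone-2 arrays above background. Plakoglobin (Jup) was 940-fold higher by its measured signals and plakophilin 3 (Pkp3) at least 193-fold higher (limma adjusted p = 1.2e-06 and 9.07e-05). Neither was above background in RClone-2, though the Jup signal there exceeded the lowest signal called above background. The plakin Ppl, a linker of the cornified envelope and desmosomes, was above background on 6 of 12 stem cell arrays and lower, with a measured difference of -8.52 ± 1.58 (limma adjusted p = 0.00639). For Krt12, Synm and Ppl these sizes rest in part on signals not above background. The plakin linkers Evpl and Plec were also among the 7 that were lower, at -4.51 ± 0.46 and -2.18 ± 0.22 (limma adjusted p = 0.000611 and 0.000586).

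Between the origins 2 of the 17 linker genes were higher in blastocyst lines, 1 was lower and 14 did not pass. Of all probes, 32.4% passed. Plakophilin 2 (Pkp2), the desmosomal plaque protein of simple epithelia and heart, was lower at -2.29 ± 0.29 (SE; limma adjusted p = 0.00711), with line means of -1.89 to -1.67 in blastocyst lines and -0.16 to 0.83 in bone marrow lines. Dst was higher by 0.90 ± 0.19 and Dsc2 by 0.76 ± 0.21 (limma adjusted p = 0.0208 and 0.0385).

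**Figure D5:**
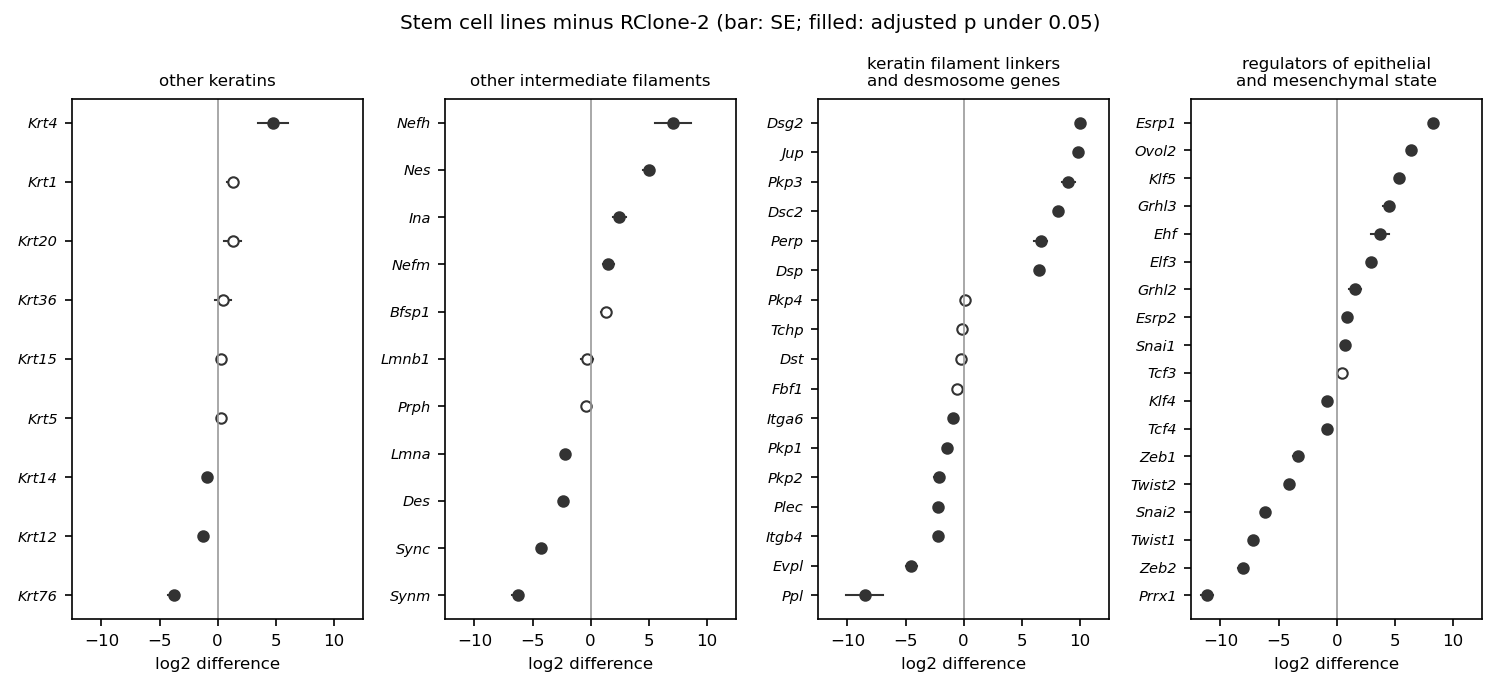
Log2 difference of the stem cell lines minus RClone-2 (x axis) for the tested genes of the 4 lists, with bars of 1 SE and filled points for a limma adjusted p under 0.05. Dsg2, Jup, Pkp3 and Dsc2 lie at the far right of the linker panel, and Prrx1 and Zeb2 at the far left of the regulator panel; for genes not above background in one group the plotted value is the fitted one, not a bound.

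Of 22 regulators of epithelial and mesenchymal state, 18 were tested. Against RClone-2, 9 were higher, 8 lower and 1 did not pass (median 0.57), where 47.7% of all probes passed. The mesenchymal homeobox gene Prrx1 was at least 770-fold lower and Zeb2, a repressor of epithelial genes, at least 86.2-fold lower (limma adjusted p = 2.65e-05 and 1.91e-05). Neither was above background on a stem cell array. Both entered the test through RClone-2, so the filter largely set this direction and the p-values are no separate support. Twist1 was lower at -7.23 ± 0.17 (SE; limma adjusted p = 2.06e-06). The epithelial splicing regulator Esrp1 was at least 89.3-fold higher (limma adjusted p = 1.32e-06). The 9 that were higher were Snai1, Ovol2, Grhl2, Grhl3, Esrp1, Esrp2, Elf3, Ehf and Klf5. The 8 that were lower were Snai2, Twist1, Twist2, Zeb1, Zeb2, Prrx1, Tcf4 and Klf4. The repressor Snai1 was thus higher in the stem cell lines, by 0.72 ± 0.21 (SE, limma adjusted p = 0.0349). Klf4 was lower at -0.83 ± 0.21 (limma adjusted p = 0.0187).

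Between the origins 3 regulators were higher in blastocyst lines, 3 lower and 12 did not pass, beside the 32.4% of all probes that did (median -0.33 beside -0.20 for all probes). Zeb1, which represses epithelial genes, was higher by 2.65 ± 0.31 (SE; limma adjusted p = 0.0062): -0.11 in Fi1 and Fi2 and 0.92 in Wk8, against -2.61 to -2.31 in the bone marrow lines and 2.24 in RClone-2. Grhl2, an activator of epithelial genes, was higher by 1.61 ± 0.39 and the repressor Snai1 by 1.301 ± 0.16 (limma adjusted p = 0.0284 and 0.00705). Klf4 was lower at -1.05 ± 0.16 and Ovol2, a repressor of Zeb1, at -0.98 ± 0.18 (limma adjusted p = 0.0094 and 0.0143). Twist2, a factor of mesenchymal cells, was lower at -0.51 ± 0.14 (limma adjusted p = 0.0383).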

How the data were processed

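Total RNA (1 µg per sample, with 10 spiked-in transcripts) was labelled with Cy3 and hybridised to 14 one-colour Agilent arrays. Per the file headers, the authors extracted background-corrected spot intensity values with Agilent Feature Extraction 10.7.3.1; the deposited processed signals are an intensity, not scaled between arrays, and the deposited flags are other values of 0 or 1. The deposited series table holds log2 values which, once sorted, match those of the scanner file. Each log2 signal was taken relative to the 75th percentile of its array, computed on 43379 spots that are not controls. Spots marked as outliers, 65 to 193 per array, were left out, and arrays A and B were averaged by line. A probe was tested if some line had it well above background on A and B, which left 29309. Some probes were above background only in the brighter of the groups compared. The filter then largely set the direction of the difference, and the p-value is no separate support. Against RClone-2, the genes named with such probes were Krt19, Krt4, Krt76, Nefh, Jup, Pkp3, Dsc2, Perp, Prrx1, Zeb2, Snai2, Esrp1, Elf3 and Ehf. Between the origins this held for Krt20. The models used limma (version 3.58.1; R 4.3.3), namely lmFit followed by eBayes, on line means with 4 degrees of freedom left over, and Benjamini-Hochberg adjustment over all probes at a threshold of 0.05. Lines of one origin were compared by F-test over arrays, and ratios by exact permutation (scipy 1.17.1). The number of lines limits the precision. A group not above background gives a lower bound, against the higher of its own signal and the lowest signal called above background. A spot can exceed that lowest signal without being called above background, as Jup did in RClone-2. The bounds are therefore approximate and hold for the processed signals only. The fit was checked on simulated data. Gene names were updated through RefSeq (GRCr8), which gave 20576 probes a current symbol. The promoter table held Krt8, Krt18 and Vim of the 5 genes.

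Every member probe is reported. For each list the largest differences that passed are named, up to 4, by the brightest probe. Named beyond this after their values were seen were Dsc2, Dsp, Perp, Evpl, Plec, Pkp1, Pkp2, Itga6, Itgb4, Ovol2 and Twist2, and the other regulators that passed against RClone-2. The same holds for the probes annotated Kb7, keratin 8-like and EndoA-like. The members and lists were chosen with earlier results of these data known. Alternatives were other background correction, scaling, filters, tests, slide and replicate terms, and leaving out lines or arrays.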

Additional observations from a re-analysis of the deposited data

How the results depend on the processing

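The 15 member differences from RClone-2 kept direction and call in all 379 alternatives run for them, with a highest limma adjusted p of 0.0217, but not size: for the 6 stem cell lines against RClone-2, Krt8 ranged from 6.65 to 8.76 and Krt19 from 5.76 to 11.43, the lowest of each with normexp. For blastocyst against bone marrow lines, the count of member probes called was 0, and became 2 with spike-in scaling, and 1 with the filter for probes above background on all arrays, with limma-trend, and with arrays as observations and the array letter as a replicate block. Calls over all 29309 probes were 9492 in the main fit, 10863 with spike-in scaling, 9787 with limma-trend and 11990 with the replicate block. With the filter for all arrays 8483 of a smaller set of probes were called. The member count was 0 to 1 over the fits that left out a line or array. The 1 was without array A of RMAPC-1, where Krt18 (A_44_P400494) was -0.80 (limma adjusted p = 0.049) and 5601 of all probes were called. The array letters were checked for pairing: over pairs of lines the B minus A differences correlated at -0.243 to 0.184. No slide held both A and B arrays, so the letter also marks the slides. With the replicate block Krt18 (A_44_P400494) was -0.74 (limma adjusted p = 0.0322). Vim turned to -0.082 with spike-in scaling, to -0.08 without Fi2, to -0.71 with the slide as a term, with the slide pair as a term and over lines that share slides, to -0.18 without 3C3, to -0.11 without all B arrays and to -0.25 without array B of RMAPC-1. Krt19 turned to -0.02 without Wk8, -0.11 without all A arrays and -0.078 without array A of RMAPC-1. Leaving out a line or array gave -0.25 to 0.63 for Vim and -0.08 to 0.70 for Krt19. The keratin to Vim ratio, -0.22, turned to 0.24 without Fi2, 0.31 without 3C3 and 0.22 without all B arrays; leaving out a line gave -0.66 to 0.31. The Krt8 to Krt18 ratio stayed between 0.87 and 1.60 over 12 alternatives, and its p could not go under 0.1. The count of members differing among bone marrow lines, 1, was 0 with normexp background correction, without scaling, with spike-in scaling and without the filter on dim probes. The causes were not tested. Krt19 in RClone-2 was limited by signal over background.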
